A study of Homo sapiens with 6 samples.

Results

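The cellular machinery that senses and handles double-stranded RNA was examined in 9 genes, chosen by name: DDX58, IFIH1, DHX58, TLR3, MAVS, TRIM56, EIF2AK2, ADAR and DICER1. All 9 were found in the deposited expression table of 24108 rows, each in 1 row, and all 9 passed the filter on low values that left 11777 rows for testing. With ZNF148 silenced, every one of the 9 had a higher mean than in the control cells, by 1.11-fold to 3.05-fold. Of all tested rows, 50.9% had a log2 change above 0. TLR3 was the only member called changed at both thresholds used here, an adjusted p below 0.05 together with a fold change above 1.5. By the same thresholds 1.83% of all tested rows were called higher. DICER1, MAVS and the row holding DDX58 rose by smaller amounts that passed the adjusted p alone. With TLR3, 4 members passed it upward, against 5.46% of all tested rows. That count was 0 without control replicate 1 or 3.

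The samples were 6 RNA-seq libraries from MDA-MB-231, an established line of triple-negative breast cancer cells that the labels class as basal. In 3 of them the cells carried a lentiviral LKO hairpin against luciferase (shCtr), and in the other 3 a hairpin against the zinc finger transcription factor ZNF148 (shZNF148). All 6 went through lentiviral transduction, given as 48 h, and then puromycin at 0.5 µg/ml for 24 h, so the control cells had also met a virus and made a hairpin RNA. Each arm used 1 hairpin, and the labels do not say whether replicates were separate cultures. The p-values therefore measure only the spread between these samples, which may be technical.

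Double-stranded RNA is a sign of viral infection, and cells read it at several places. RIG-I (DDX58) and MDA5 (IFIH1) bind it in the cytosol and signal through MAVS on the mitochondrial membrane to the kinases TBK1 and IKKε and the transcription factor IRF3, while TLR3 binds it in endosomes and signals through TICAM1. Type I interferon made in response raises the expression of interferon-stimulated genes, to which several of the sensors themselves belong, through promoter elements called ISREs. Other proteins act on the RNA itself: PKR (EIF2AK2) is activated by it and stops translation by phosphorylating eIF2α, ADAR edits adenosine to inosine in it and thereby hides the cell's own duplexes from MDA5, and Dicer cuts hairpins into microRNAs and processed short hairpins into the silencing form.

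The sequence of the ZNF148 hairpin is shown first because it is itself a source of double-stranded RNA and the agent that defines the shZNF148 group. Its 21-base target, given 5′ to 3′ on the ZNF148 sense strand, has a single site in the canonical ZNF148 transcript, in the coding part of exon 9 of 9, at chr3:125232398-125232418 (GRCh38, minus strand). Exact copies of these 21 bases in the canonical transcripts of the 9 members, searched on both strands, numbered 0. Shorter or partial matches were not searched, so a direct action of the hairpin on the members was not tested. The target read as follows.
shZNF148 target: cccttggtgaatgtaaatgat

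The promoters of the sensors are shown because several members are known interferon-stimulated genes. In RefSeq windows on GRCh38.p14 that run from 250 bases before to 50 bases after a start site, the ISRE-like word GAAANNGAAA was searched on both strands. It was present in windows of IFIH1, TLR3 and EIF2AK2, 3 of the 8 members in the promoter table, and in 4.38% of all 27305 genes of that table. A looser word that contains the first, GNAANNGAAA, was chosen after the sequences had been seen. It also matched in DDX58 and TRIM56, which made 5 of 8 members, against 9.78% of all genes. Stretches of 120 bases around the match nearest to the start site are printed 5′ to 3′ on the strand of the gene, for DDX58, IFIH1, TLR3 and EIF2AK2, at chr9:32526327-32526446 (minus strand), chr2:162318665-162318784 (minus), chr4:186069056-186069175 (plus) and chr2:37156961-37157080 (minus). Capitals mark the match, which reads on the opposite strand in TLR3 and is the looser word in DDX58.
DDX58: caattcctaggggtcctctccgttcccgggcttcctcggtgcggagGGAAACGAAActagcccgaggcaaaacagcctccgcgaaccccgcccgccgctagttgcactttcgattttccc
IFIH1: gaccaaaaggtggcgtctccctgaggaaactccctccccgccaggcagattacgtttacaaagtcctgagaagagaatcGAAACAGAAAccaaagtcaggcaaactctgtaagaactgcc
TLR3: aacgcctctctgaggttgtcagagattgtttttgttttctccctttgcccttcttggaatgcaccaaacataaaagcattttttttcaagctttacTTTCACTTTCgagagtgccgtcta
EIF2AK2: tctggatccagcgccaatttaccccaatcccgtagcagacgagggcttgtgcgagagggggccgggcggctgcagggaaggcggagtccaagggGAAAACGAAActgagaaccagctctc

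The match began 21 bases before the start site in IFIH1, 4 before it in TLR3, 6 before it in EIF2AK2 and 204 before it in DDX58. ZNF148 is known to bind GC-rich DNA, so a C-rich word, CCCCNCCCC, was searched on both strands as well. It was found in windows of MAVS, TRIM56, EIF2AK2, ADAR and DICER1, again 5 of 8, and in 28.4% of all genes. A gene was counted if any of its windows held the word, and 25.2% of all windows did. ADAR and DICER1 have several windows, some of them without it. Among 36 interferon-stimulated effector genes listed for context, 30 had a window, of which 22 held GAAANNGAAA and 7 held CCCCNCCCC. These matches describe letters in the windows and do not mark binding sites.

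The knockdown was checked first. ZNF148 measured 3.72, 4.36 and 4.30 FPKM in shCtr replicates 1, 2 and 3 and 0.914, 0.282 and 0.834 FPKM in shZNF148 replicates 1, 2 and 3, where FPKM is a fragment count scaled to transcript length and library size. The groups did not overlap, and the shZNF148 mean was 16.4% of the shCtr mean. On the scale used for all tests, log2(FPKM + 1), ZNF148 fell by 1.63 (SE 0.18, adjusted p = 0.0099 in limma). The adjusted p was 0.0603 without shCtr replicate 1 and 0.0568 without shCtr replicate 3.

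Other facts of the series bear on all values. Of the 11777 tested rows, 216 (1.83%) were called higher in shZNF148 and 431 (3.66%) lower, and the median log2 change over all tested rows was 0.01. The mesenchymal markers of MDA-MB-231 were high, with VIM at 1510 to 1840 FPKM and CD44 at 402 to 606 FPKM in the 6 samples. Of 7 receptor and luminal genes taken as low in this line, ESR1 was listed at 0 in all 6, but EPCAM stood at 8.0 to 11.1 FPKM and GATA3 at 7.53 to 9.24 FPKM. The joint row of ERBB2 and MIR4728 stood at 126 and 125 FPKM in replicate 2 of shCtr and shZNF148 and at 20.1 to 24.8 FPKM in the other 4 samples. The 6 markers of this line summed to 3420 to 3550 FPKM in shCtr and 2980 to 3050 FPKM in shZNF148. Of 6 leukocyte markers, the defining PTPRC reached at most 0.115 FPKM and 2 passed the filter. These were CD68, which fell by 0.52 on the log2 scale, and LYZ, which rose by 1.31 and reached 2.23 to 4.97 FPKM (adjusted p = 0.0233 and 0.0267). LYZ averaged 0.627 FPKM in shCtr and so passed the filter of 1 FPKM only through shZNF148. The leukocyte list summed to 112 to 130 FPKM in shCtr and 76.0 to 93.1 FPKM in shZNF148, and the part of these shifts in the members' differences was not tested. Read numbers are unknown, and relative depth, read from the steps between low values, ran from 0.806 to 1.13 of that of shCtr replicate 1. In bulk samples like these, fewer expressing cells and less RNA per cell cannot be told apart.

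The plot of member levels by sample gives every value behind these results.

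**Figure D1:**
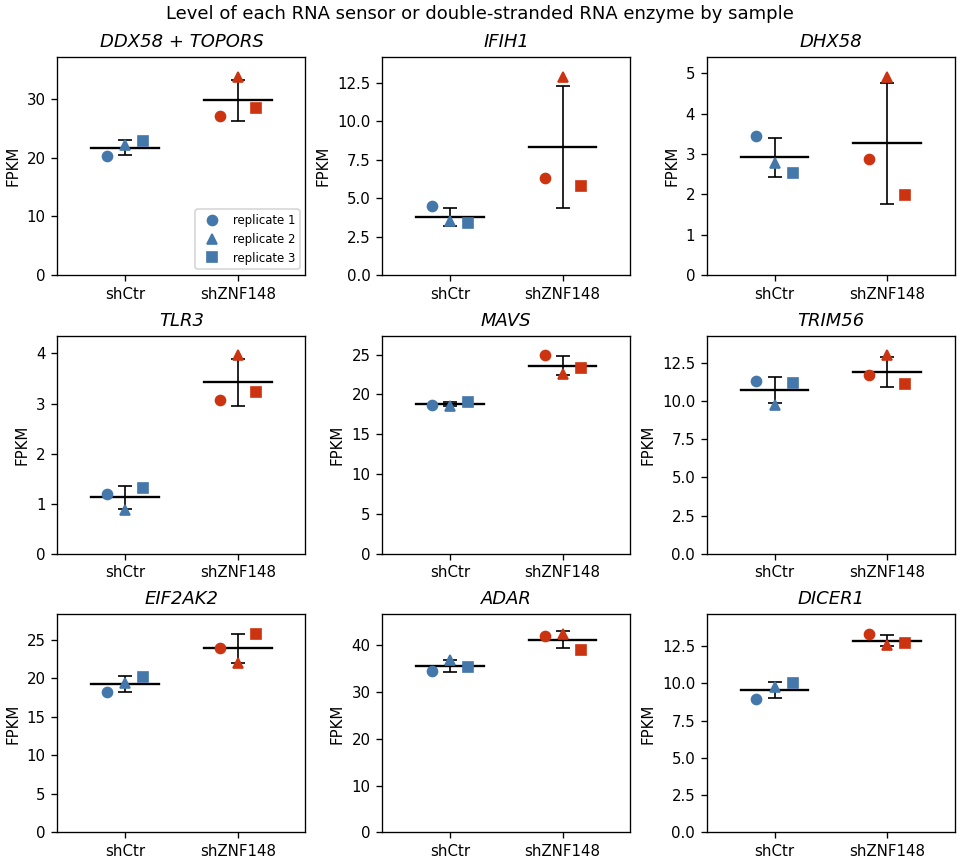
FPKM of each of the 9 genes (1 panel per gene, vertical axes from 0) in 3 shCtr (blue) and 3 shZNF148 (red) samples. Marker shapes give the replicate number, horizontal lines the group mean and whiskers 1 SD. The groups are apart in 7 panels and overlap for DHX58 and TRIM56, and shZNF148 replicate 2 stands far above the other 2 for IFIH1 and DHX58.

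Among the RIG-I-like receptors, the row holding DDX58 was the most abundant. DDX58 encodes RIG-I, which recognises the ends of short double-stranded RNA, and lies at chr9:32455302-32526208 on the minus strand. The table gives it in 1 row with its neighbour TOPORS, a ubiquitin and SUMO ligase gene whose annotated end is 14335 bases away on the same strand, so the values cannot be assigned to DDX58 alone. The joint row measured 20.3, 22.1 and 22.8 FPKM in shCtr and 27.1, 33.8 and 28.4 FPKM in shZNF148. Every shZNF148 sample was above every shCtr sample. The means were 21.7 ± 1.28 and 29.8 ± 3.57 (SD, n = 3 each), a ratio of 1.37. The log2 change of 0.43 (SE 0.10) passed the test at an adjusted p of 0.0378 but stayed under the fold limit. It no longer passed when any replicate other than shZNF148 replicate 2 was left out, with adjusted p of up to 0.132. It also did not pass with no filter on low values, at 0.0529, or with the replicate number as a block in the fit, at 0.0629.

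IFIH1 encodes MDA5, which recognises long duplexes, and lies at chr2:162267074-162318684 on the minus strand. It measured 4.46, 3.49 and 3.41 FPKM in shCtr and 6.32, 12.9 and 5.80 FPKM in shZNF148. The groups were apart, but shZNF148 replicate 2 was far above the other 2 shZNF148 samples, and the coefficient of variation was 47.5% in shZNF148 against 15.4% in shCtr. The ratio of the means was 2.2. The log2 difference of 0.89 (SE 0.27, 95% interval 0.24 to 1.55) did not pass the test, with an adjusted p of 0.0735. Without shZNF148 replicate 2 the difference was 0.57 and the adjusted p 0.0391, so the smaller difference was the one that passed.

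DHX58 encodes LGP2, the third RIG-I-like receptor, which lacks the signalling domains and modulates the other two, and lies at chr17:42101404-42112714 on the minus strand. Its levels were 3.45, 2.78 and 2.52 FPKM in shCtr and 2.88, 4.91 and 1.99 FPKM in shZNF148. The groups overlapped, and the lowest and the highest of the 6 values were both shZNF148 samples. The log2 difference was 0.07 (95% interval -0.52 to 0.67) with an adjusted p of 0.864, and it became -0.19 without shZNF148 replicate 2. The interval leaves room for a difference of either sign.

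TLR3 was the lowest member in shCtr and had the largest change of the 9. TLR3 encodes the endosomal receptor and lies at chr4:186068911-186088073 on the plus strand. It measured 1.19, 0.870 and 1.31 FPKM in shCtr and 3.08, 3.96 and 3.24 FPKM in shZNF148. The 2 groups were far apart, with the lowest shZNF148 sample well above the highest shCtr sample, and the 3 shZNF148 samples stood at 2.74, 3.53 and 2.88 times the shCtr mean. The mean went from 1.12 ± 0.228 to 3.43 ± 0.470 FPKM (SD, n = 3 each), a ratio of 3.05. TLR3 rose by 1.06 on the log2 scale (SE 0.14, adjusted p = 0.0118), and 99.0% of all tested rows had a lower log2 change. At so low a level the pseudocount sets the size, which was 1.54 with 0.1 FPKM and 0.46 with 5 FPKM, the last being under the fold limit. The adjusted p was 0.0661 without shCtr replicate 1 and 0.0579 without shCtr replicate 3, and at most 0.0403 without any of the other 4 replicates.

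Downstream of the cytosolic sensors, the adaptor MAVS rose in a narrow band. MAVS lies at chr20:3846799-3876123 on the plus strand. Its levels were 18.7, 18.6 and 19.1 FPKM in shCtr and 24.9, 22.6 and 23.3 FPKM in shZNF148. The shCtr samples were almost level, with a coefficient of variation of 1.37%, and all 3 shZNF148 samples were above them. The log2 change was 0.31 (SE 0.07), with a ratio of means of 1.26 and an adjusted p of 0.0309. It did not pass when any replicate other than shZNF148 replicate 2 was left out, with adjusted p of up to 0.117. With the replicate number as a block in the fit the adjusted p was 0.0777.

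TRIM56 encodes a ubiquitin ligase linked to TLR3 and to cytosolic nucleic acid sensing, and lies at chr7:101085481-101097967 on the plus strand. Its levels were 11.3, 9.76 and 11.2 FPKM in shCtr and 11.7, 13.0 and 11.1 FPKM in shZNF148. The groups overlapped, since shZNF148 replicate 3 was below 2 of the shCtr samples. The log2 difference was 0.14 (95% interval -0.09 to 0.36) with an adjusted p of 0.347.

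Of the enzymes that act on double-stranded RNA, DICER1 was the only one to pass the adjusted p. It lies at chr14:95086228-95158010 on the minus strand. Its levels were 8.94, 9.75 and 9.99 FPKM in shCtr and 13.3, 12.6 and 12.7 FPKM in shZNF148. All shZNF148 samples were above all shCtr samples, and at 1.39, 1.32 and 1.33 times the shCtr mean they lay close together. The log2 change was 0.39 (SE 0.07, 95% interval 0.22 to 0.57), the ratio of means 1.35 and the adjusted p 0.0250. Leaving out shCtr replicate 1, 2 or 3 or shZNF148 replicate 1 gave adjusted p of 0.0673 to 0.1, and the replicate number as a block 0.071.

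EIF2AK2 encodes PKR and lies at chr2:37099210-37157522 on the minus strand. It measured 18.2, 19.4 and 20.2 FPKM in shCtr and 23.9, 22 and 25.7 FPKM in shZNF148. The groups did not overlap, and here shZNF148 replicate 2 was the lowest of its group. The log2 difference was 0.29 (SE 0.08, ratio of means 1.24), with an adjusted p of 0.0563, just outside the threshold. It was inside at 0.0322 without shZNF148 replicate 2 and at 0.0472 when only rows averaging 5 FPKM or more were tested.

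ADAR was the most abundant member in both groups. It lies at chr1:154581695-154628013 on the minus strand. Its levels were 34.5, 36.9 and 35.3 FPKM in shCtr and 42.1, 42.4 and 39.1 FPKM in shZNF148. The groups were apart, but the shift was small beside the level, with a ratio of means of 1.16. The log2 difference of 0.21 (SE 0.06, 95% interval 0.05 to 0.36) had an adjusted p of 0.0743 and did not pass under any of the settings tried.

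**Figure D2:**
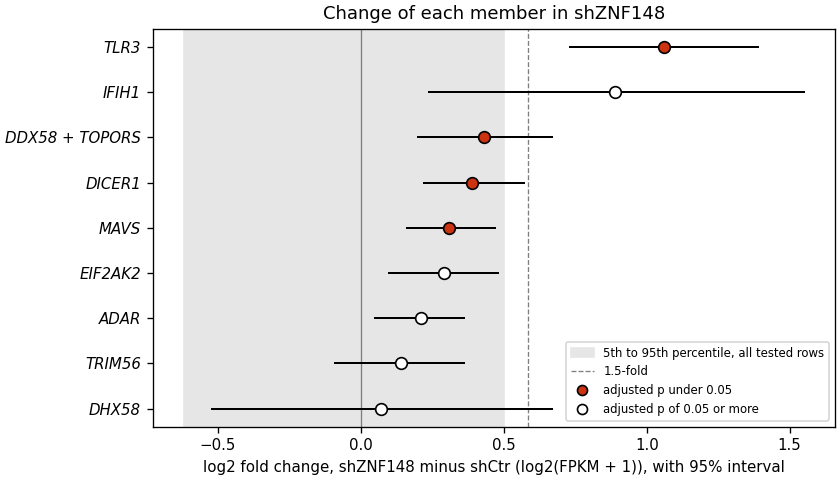
Log2 change of each member (shZNF148 minus shCtr, on log2(FPKM + 1)) with its 95% interval from limma. The point estimates run from 0.07 for DHX58 to 1.06 for TLR3, all above 0, and the intervals of DHX58 and TRIM56 include 0.

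Counted over the 9, 4 passed the adjusted p alone, all of them higher in shZNF148, against 5.46% of all tested rows that passed in that direction and 8.13% that passed in the lower direction. In this and the other counts of members, DDX58 stands for its joint row with TOPORS, which is 1 of the 4 and cannot be assigned to DDX58 alone. The plot of log2 changes with intervals sets the 9 side by side. A single member passed both thresholds upward, against 1.83% of tested rows, and 0 passed them downward, against 3.66%. By limma, 0 members were lower at an unadjusted p under 0.05, since none had a lower mean. The count of 4 was 0 without shCtr replicate 1 or 3, 1 without shCtr replicate 2 or shZNF148 replicate 1, 2 without shZNF148 replicate 3 and 6 without shZNF148 replicate 2. The median log2 change of the 9 was 0.31, beside 0.01 for all tested rows, whose 5th and 95th percentiles were -0.62 and 0.50.

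In 7 of the 9 every shZNF148 value was above every shCtr value, which held for 20.0% of all tested rows. For each of these 7, an exact two-sided permutation test over the samples gave p = 0.1, the smallest value that 3 samples against 3 can give. The exact p was 0.8 for DHX58 and 0.3 for TRIM56.

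The order of levels, compared per length of transcript, was alike in both groups at the top. In shCtr the mean FPKM fell from ADAR at 35.6 to the DDX58 row at 21.7, EIF2AK2 at 19.3, MAVS at 18.8, TRIM56 at 10.8, DICER1 at 9.56, IFIH1 at 3.79, DHX58 at 2.92 and TLR3 at 1.12. Sample ranges overlapped between EIF2AK2 and MAVS, between TRIM56 and DICER1, and between IFIH1 and DHX58, so those neighbours cannot be ordered. In shZNF148, TLR3 at 3.43 FPKM had a range that overlapped that of DHX58 at 3.26 FPKM, and that of IFIH1 at 8.34 FPKM overlapped those of TRIM56 and DICER1, which also overlapped each other.

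The shZNF148 samples were not alike. Replicate 2 held the highest value of its group for 6 of the 9 members, replicate 1 for 2 and replicate 3 for 1, and replicate 2 also had the lowest ZNF148. The excess was not shared by all members. IFIH1 stood at 1.67, 3.41 and 1.53 times its shCtr mean in replicates 1, 2 and 3 and DHX58 at 0.987, 1.68 and 0.684 times. MAVS stood at 1.33, 1.2 and 1.24 times, and for EIF2AK2 replicate 2 was the lowest of the 3. The summed level of the listed interferon-stimulated effectors was also highest there. It was 1180, 1650 and 1150 FPKM in shZNF148 replicates 1, 2 and 3 beside 1060 to 1130 FPKM in shCtr. Abundant genes weigh most in this sum. Of the 32 tested effectors, 28 had a higher mean in shZNF148 and 4 a lower one, while 50.9% of all tested rows were higher. IFIT1, for instance, was above its shCtr range of 12.8 to 13.7 FPKM in all 3, at 31.4, 74.4 and 31.8 FPKM. The part of the state of replicate 2 in the members' differences was not tested. The plot of each replicate against the shCtr mean shows the split.

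**Figure D3:**
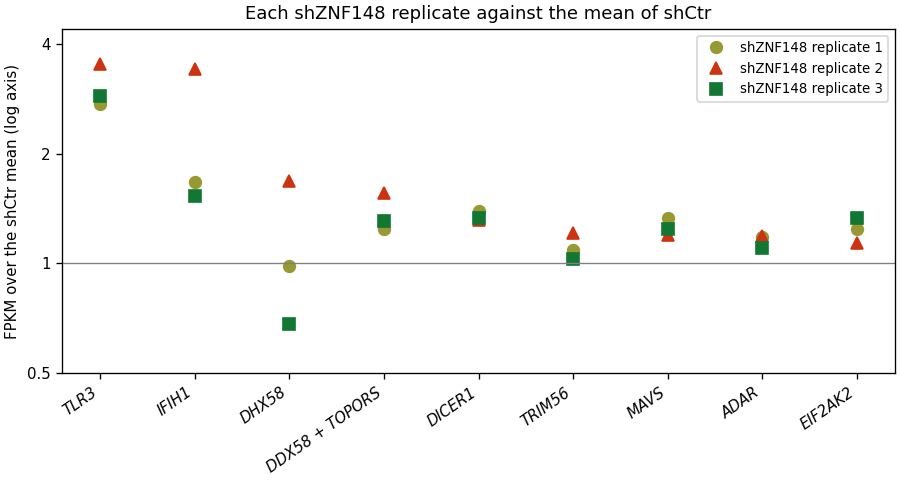
Level of each member in each shZNF148 replicate divided by the mean of the 3 shCtr samples (log axis, line at 1). Replicate 2 is the highest for IFIH1 at 3.41, TLR3 at 3.53, DHX58 at 1.68 and the DDX58 row at 1.56, while DICER1, MAVS and ADAR lie within a narrow range in all 3 replicates.

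The rows that ran most closely with 2 of the sensors were found by Pearson's r of log2(FPKM + 1) over the 6 samples, among the 8832 rows averaging 5 FPKM or more. For the DDX58 row they were NFU1 (r = 0.998), MFSD1 (0.996), CDC25A (0.994), LYN (0.994) and IFI35 (0.993). For IFIH1 they were LEPRE1, LPCAT3 and the joint row of MYO9B and USE1 (0.998 each), AHCYL2 (0.997) and ITFG1 (0.994). All were highest in shZNF148 replicate 2, which follows from the choice, since the DDX58 row and IFIH1 were themselves highest there. With 6 points and so many rows these values are a description of the likeness only.

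The remaining genes of the pathway were followed in 8 lists. For comparison with each list, 50.9% of all tested rows had a log2 change above 0. At the adjusted p alone, 5.46% of all tested rows rose and 8.13% fell. Of 27 cofactors of the RIG-I-like receptors and genes of MAVS signalling, 26 were tested, 16 were higher and 10 lower, 4 rose and 1 fell at the adjusted p alone, and the median log2 change was 0.05. The kinase IKKε (IKBKE) rose from 23.5, 24.8 and 25.8 to 34.4, 32.4 and 31.3 FPKM, a log2 change of 0.39 (adjusted p = 0.0217). ZC3HAV1, the zinc finger antiviral protein that binds CpG-rich viral RNA, was called higher, at 13.5, 15.6 and 14.7 FPKM in shCtr and 23.8, 38.0 and 22.8 FPKM in shZNF148 (0.87, adjusted p = 0.0341). FADD rose by 0.31 and TRIM14 by 0.36 (adjusted p = 0.0305 and 0.0411). TBKBP1, an adaptor of TBK1, was called lower at 0.934, 0.613 and 1.06 FPKM against 1.94, 1.86 and 2.09 FPKM (-0.67, adjusted p = 0.0305). Its shZNF148 mean was 0.87 FPKM, so it passed the filter of 1 FPKM only through shCtr. The kinase TBK1 (0.18, adjusted p = 0.156) and the transcription factor IRF3 (0.04, adjusted p = 0.762) did not pass.

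Other double-stranded RNA-binding proteins were split evenly, with 7 of 14 higher and a median of 0.00. STAU2, which carries mRNA in neurons and other cells, was the only one past the adjusted p (-0.46, adjusted p = 0.0234). ZNFX1, an interferon-inducible helicase that binds viral RNA, measured 14, 17.6 and 14.4 FPKM in shCtr and 23.2, 34.3 and 20.6 FPKM in shZNF148, with an adjusted p of 0.0551 that became 0.0449 without shZNF148 replicate 2, 0.0489 without shZNF148 replicate 3 and 0.0485 when only rows averaging 5 FPKM or more were tested. DDX60, described as a RIG-I cofactor, again stood apart in shZNF148 replicate 2, with 7.39, 16.4 and 8.71 FPKM against 6.80, 5.16 and 6.21 FPKM (0.68, adjusted p = 0.131, and 0.36 without that replicate).

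Of the 10 genes of microRNA and hairpin processing other than DICER1, 8 were higher, and the median was 0.16. The largest difference, 1.39 (adjusted p = 0.304), was that of the joint row of DGCR8, MIR1306 and MIR3618. It rested on 110 FPKM in shZNF148 replicate 1, beside 9.59 and 9.80 FPKM in replicates 2 and 3 and 7.46 to 8.31 FPKM in shCtr. By limma the number past the adjusted p was 0. AGO1, an Argonaute listed as EIF2C1, differed by 0.34 (adjusted p = 0.0565) and TNRC6C, an Argonaute partner, by 0.32 (adjusted p = 0.0844). Without the mean-variance trend both passed, at 0.0474 and 0.0481. DROSHA, which makes the cut before Dicer, measured 20.4, 23.5 and 22.1 FPKM in shCtr and 24.3, 19.9 and 21.7 FPKM in shZNF148, and those groups overlapped.

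The oligoadenylate synthetase family, most members of which are enzymes switched on by double-stranded RNA, was higher in all 4 tested cases. Of these, 3 passed the adjusted p, against 5.46% of all tested rows that passed upward. OAS2 measured 3.73, 5.01 and 4.19 FPKM in shCtr and 9.04, 16.0 and 7.51 FPKM in shZNF148 (1.1, adjusted p = 0.0392). OAS1 rose by 0.70 (adjusted p = 0.0418) and OAS3 by 0.55 (adjusted p = 0.0256). OASL reached 28.6 FPKM in shZNF148 replicate 2 against 8.72 and 8.85 FPKM in the other 2, and its difference of 1.36 had an adjusted p of 0.0757. Without that replicate the difference was 0.83 and passed, with an adjusted p of 0.0140.

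Of 11 DNA sensors and other nucleic acid receptors, 7 were tested, of which 2 were higher and 5 lower, with a median of -0.06. SAMHD1, which depletes nucleotides, was called higher at 36.2, 42.4 and 33.6 FPKM against 20.8, 24.4 and 24.7 FPKM (0.66, adjusted p = 0.0201). CGAS, listed as MB21D1, differed by -0.04 (adjusted p = 0.725). STING1, listed as TMEM173, had 8.96, 18.3 and 7.32 FPKM in shZNF148 around shCtr values of 11.7, 11.6 and 11.4 FPKM (-0.11, adjusted p = 0.827), and without shZNF148 replicate 2 the change was -0.47 and passed at 0.0326.

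A list of 8 genes held eIF2α, its kinases other than PKR, its phosphatase subunits and transcription factors downstream of it. Of these, 7 had a lower mean in shZNF148, with a median of -0.19, while 50.9% of all tested rows were higher. PPP1R15B, a subunit of an eIF2α phosphatase, was the only one past the adjusted p (-0.34, 0.0405). The kinase EIF2AK1 (-0.18, adjusted p = 0.124) and the transcription factor ATF4, whose translation rises when eIF2α is phosphorylated (-0.32, adjusted p = 0.0916), did not pass.

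Interferon genes themselves were at or near 0. Of the 9 listed, 8, IFNB1 among them, were listed at 0 in all 6 samples, and IFNL1, listed as IL29, reached 0.462 FPKM at most. An entry of 0 may be a failed estimate here, and the depth behind it is unknown. The 36 interferon-stimulated effectors had 32 tested genes, 28 higher and 4 lower, with 9 called higher, 1 called lower and a median of 0.36. IFIT1, which binds viral RNA caps, measured 13.7, 12.8 and 13.4 FPKM in shCtr and 31.4, 74.4 and 31.8 FPKM in shZNF148 (1.59, adjusted p = 0.0280). TRIM21 rose by 0.68, IFI35 by 0.91, SAMD9 by 1.19 and HERC6 by 1.22 (adjusted p = 0.0185, 0.0223, 0.0198 and 0.0286). HERC6 has 2 rows in the table, and with rows of one name summed its difference was 0.73 with an adjusted p of 0.0681. IFITM2, a membrane restriction factor, was called lower at 66.9, 55.8 and 55.4 FPKM against 103, 91.7 and 107 FPKM (-0.75, adjusted p = 0.0120). Over the 8 lists, 15 genes were called. The effectors gave 9 higher and 1 lower, and the oligoadenylate synthetases 2 higher. The list of cofactors and MAVS signalling gave 1 higher and 1 lower, and that of DNA sensors 1 higher. Of the 15, OAS1 and TBKBP1 passed the filter on low values only through the group where they were higher. Of all tested rows, 1.83% were called higher and 3.66% lower. The count of 15 was 0 without shCtr replicate 1 or 3, 1 without shCtr replicate 2 and 6 without shZNF148 replicate 1. The plot of the lists places the members among them.

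**Figure D4:**
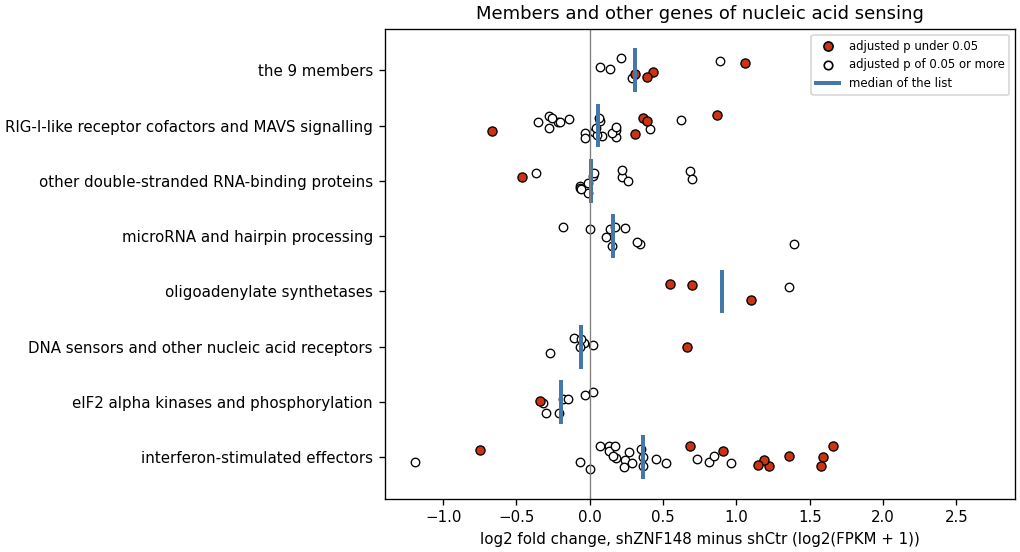
Log2 change (shZNF148 minus shCtr, on log2(FPKM + 1)) of every tested gene of the 9 members and of 7 of the lists, 1 row per list. Filled points passed an adjusted p of 0.05 and bars give list medians, which are 0.31 for the members, 0.90 for the oligoadenylate synthetases, 0.36 for interferon-stimulated effectors and -0.19 for the eIF2α list.

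**Figure D5:**
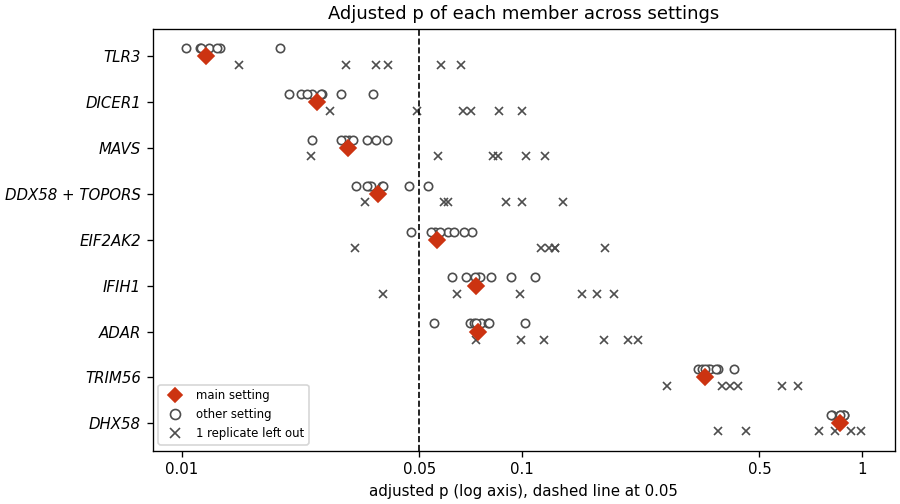
Adjusted p of each member (log axis, dashed line at 0.05) under the setting used in the text (diamonds), under other pseudocounts, filters, scalings and variance models (circles) and with 1 replicate left out (crosses). TLR3, DICER1 and MAVS stay under the line for all circles and cross it for some or most crosses, and DHX58, TRIM56 and ADAR lie above it throughout. The fit with the replicate number as a block is not drawn. In it DICER1 (0.071) and MAVS (0.0777) were above 0.05.

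The spread of adjusted p over settings put the members into 3 kinds. TLR3, DICER1 and MAVS passed under every change of pseudocount, filter, scaling or variance model that could test them. With 1 replicate left out, TLR3 had an adjusted p above 0.05 only without shCtr replicate 1 or 3. DICER1 did so without any shCtr replicate or shZNF148 replicate 1. MAVS did so without any replicate other than shZNF148 replicate 2, as did the DDX58 row. With the replicate number as a block in the fit, TLR3 passed at 0.0489, but DICER1 (0.071) and MAVS (0.0777) did not. Here passing means the adjusted p alone, since TLR3 fell short of the fold limit with a pseudocount of 5 FPKM and DICER1 and MAVS were under it as tested. The DDX58 row, EIF2AK2 and IFIH1 lay near the threshold and crossed it in 1 or more settings. ADAR, TRIM56 and DHX58 never passed, and DHX58 also changed sign.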

How the data were processed

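RNA-seq of 3 shCtr and 3 shZNF148 samples was used. The authors deposited 1 table of normalised FPKM values with a column per sample (0 columns unused). The submitters' processing notes name bcl2fastq 2.17.1.14, TopHat2 2.0.14, Cufflinks 2.2.1, Cuffnorm 2.2.1 and the builds hg18 and hg19, whereas the paper's methods name Salmon on GRCh38 and DESeq2, and which of these made the table is not stated. The table holds no read counts and no transcript lengths, so reads could not be recovered and the precision of low values is unknown.

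Rows averaging 1 FPKM or more over the 6 samples (11777 of 24108) were fitted on log2(FPKM + 1) with limma 3.58.1 in R 4.3.3 (eBayes with a trend, condition as the only term). Adjusted p-values are Benjamini-Hochberg values over all tested rows, and calls required a value below 0.05 together with a fold change above 1.5. Log2 changes on this scale understate those of low genes. The fit was tested on simulated data. An exact permutation test (two-sided) was added for each member. Rows that join several symbols (733 in the table) were kept as deposited.

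The 9 members and the context lists were chosen with earlier results of these data known. The text names all members, ZNF148 and, per list, at most 6 genes with the smallest adjusted p plus the genes that define the list. The joint row of DGCR8 is named as well, for its outlying value. A few listed genes are not reported here by name. Coordinates come from GENCODE release 44 (GRCh38), promoter windows from RefSeq (GRCh38.p14) and the hairpin target from the study's supplementary tables. Of the members, 8 matched the promoter table, and DHX58 did not. Alternatives covered the pseudocount, the filter, scaling, the variance model, rows sharing a name, the replicate number as a block and leaving out each replicate. Other steps ran in Python 3.11.15 with pandas 2.3.3, scipy 1.17.1 and matplotlib 3.10.9.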

Additional observations from a re-analysis of the deposited data

How the results depend on the processing

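The 647 rows called became 280 with a pseudocount of 5 FPKM and 29 to 608 when 1 replicate was left out. The 1 member called, TLR3, became 0 with that pseudocount and 0 with a minimum mean of 5 FPKM, a filter under which TLR3, DHX58 and ZNF148 were not tested, and 0 to 1 with 1 replicate left out. The 4 members past the adjusted p ranged from 0 to 6 with 1 replicate left out, and the 15 called context genes from 0 to 16, or 9 with a pseudocount of 5 FPKM. ZNF148 kept its direction, from -1.74 to -1.45 with 1 replicate left out. The members with separate groups numbered 7 to 8 in those runs. Of 133 values of single members under the alternatives, 108 kept direction and side of the adjusted p of 0.05, 20 moved above it, 3 moved below it and 2 reached or crossed 0, both of DHX58, whose log2 difference ran from -0.19 to 0.30 with 1 replicate left out. So did IRF3 (-0.04 to 0.08), DROSHA (-0.08 to 0.06), CGAS (-0.09 to 0.01) and STING1 (-0.47 to 0.14). The cause of these shifts was not tested, beyond the smaller number of samples in each such run. The share of upward calls was 33.4%, but 10.3% without shCtr replicate 1 and 14.9% without shCtr replicate 3. A replicate block in the fit left 315 rows called and 1 member past the adjusted p (TLR3, 0.0489). Same-numbered samples correlated, in their deviations from group means, at 0.001, -0.088 and 0.030, and not every sample correlated best with its own number. The joint row of ERBB2 and MIR4728 was nonetheless high in replicate 2 of both shCtr and shZNF148, at 126 and 125 FPKM. Whether same-numbered samples were handled together is not given by the labels, and these values cannot decide it.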
